A study of Mus musculus with 12 samples.

Results

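The genes described here encode the proteins of the cytosolic ribosome. They were chosen by name: symbols that begin with Rpl or Rps and a digit, together with Rplp0, Rplp1, Rplp2, Rpsa and Fau, leaving out names with -ps (processed pseudogenes), the S6 kinases and Rps19bp1. Of 29838 genes in the table, 92 met this rule, and 88 of these reached an FPKM of 1 in 3 or more libraries (FPKM, fragments scaled to transcript length and to the mapped fragments of the library). These 88 members, 37 of the small (40S) subunit and 51 of the large (60S) subunit, are among the 12994 genes that passed the same filter and were tested. Of the members, 83 were annotated as protein coding and 5 as pseudogenes (Rpl37rt, Rps4l, Rpl6l, Rps3a2 and Rps3a3), and they lay on 20 chromosomes, with 14 on chromosome 7 and 4 on the X chromosome. The 4 genes that did not pass were Rpl3l, Rpl10l, Rpl39l and Rpl32l, of which Rpl32l came closest to the limit with an FPKM of 0.169 to 1.08. The lowest members that passed were Rps27rt, Rps4l and Rps3a3, with means of 3.58, 4.17 and 5.66 over all libraries.

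RNA was sequenced from erythroblasts of WT C57BL/6 male mice aged 8 weeks, sorted from bone marrow (BM) after removal of cells positive for CD45, CD11b or GR1. Proerythroblasts (Pro) were gated as CD44 high and Ter119 low, and basophilic (Baso), polychromatic (Poly) and orthochromatic (Ortho) erythroblasts were gated among Ter119-positive cells by CD44 and cell size, with 3 libraries per stage. No group carried a treatment or an engineered allele, the labels and methods do not say whether replicates came from separate mice, and Ortho replicates 2 and 3 carry only the cell type Erythroblast, so that their stage rests on their titles. For library preparation the labels give Trizol with the NEBNext Ultra kit and the study's methods give Geek lysates with the KAPA Hyper Prep kit.

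Each cytosolic ribosome holds a single copy of most of these proteins, which are made in the cytoplasm, carried into the nucleolus and assembled there on ribosomal RNA. Their mRNAs belong to the TOP class, which begin with a run of pyrimidines at the 5′ end and are translated under control of mTORC1 and Larp1. In the erythroid lineage they are known for Diamond-Blackfan anemia, in which loss of a copy of a ribosomal protein gene leads to too few erythroblasts, and unassembled Rpl5 and Rpl11, bound to 5S ribosomal RNA as the 5S RNP, block Mdm2 and so stabilise p53.

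The FPKM of the 88 members summed to 76783, 77266 and 83178 in the Pro libraries and to 36310, 43718 and 40735 in the Baso libraries. The sum was 31330, 33804 and 32266 in Poly and 30735, 31793 and 31615 in Ortho. Every Pro library thus lay above every Baso library and every Baso library above every Poly library, while Poly and Ortho overlapped. On this sum, Pro was 1.96 times Baso, Baso 1.24 times Poly, and Poly 1.03 times Ortho. The 40S and 60S members moved alike in sum, with Pro at 2.47 times Ortho for the 40S and 2.56 times for the 60S members.

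FPKM is relative to the other transcripts in a library, and hemoglobin transcripts took 8.44% ± 1.95 of all FPKM at Pro, 35.1% ± 1.79 at Baso, 36.6% ± 1.56 at Poly and 49.6% ± 2.74 at Ortho (SD, n = 3 each). The members' share of all FPKM was 15.3% ± 0.605 at Pro, 6.85% ± 0.530 at Baso, 5.52% ± 0.153 at Poly and 4.69% ± 0.0830 at Ortho (SD, n = 3). With the hemoglobin genes left out of the total, the share was 16.7% ± 0.369 at Pro, 10.6% ± 0.873 at Baso, 8.72% ± 0.411 at Poly and 9.31% ± 0.414 at Ortho. The share was highest in every Pro library on both scales. All Ortho libraries lay below all Poly libraries in the share of all FPKM, whereas without hemoglobin the Ortho mean was above the Poly mean and the libraries overlapped. Between libraries of the same replicate number, the share without hemoglobin was higher in Ortho than in Poly in 3 of 3 pairs, and the members' summed FPKM was lower in 3 of 3. In sorted bulk cells, fewer cells of a type and less RNA per cell cannot be told apart.

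**Figure D1:**
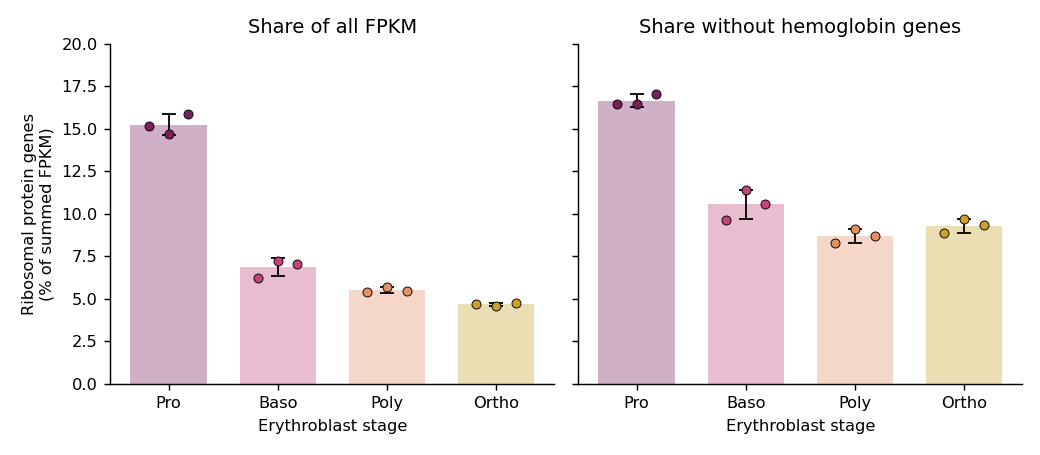
Share of the summed FPKM taken by the 88 ribosomal protein genes at each erythroblast stage, of all genes (left) and without hemoglobin genes (right). Points are libraries, bars are means and error bars are SD (n = 3); the mean fell from 15.3% in Pro to 4.69% in Ortho on the left, and was 9.31% in Ortho on the right.

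The members were among the most abundant transcripts at every stage. The median member had a mean FPKM of 848 at Pro, 446 at Baso, 368 at Poly and 352 at Ortho, levels above those of 99.4%, 99.0%, 98.9% and 99.0% of the genes tested. Among the 100 most abundant genes other than hemoglobin, 54 were members at Pro, 34 at Baso, 25 at Poly and 27 at Ortho. The highest levels belonged to the P stalk genes Rplp1 and Rplp0, followed by Rpl8, Rpl13 and Rps3a1. Rpl8, whose protein lies close to the peptidyl transferase centre, measured 2429.6, 1956 and 2048 FPKM in Pro and 643, 681 and 649 in Ortho, and Rpl13 measured 1776, 1856 and 1963 in Pro and 709, 758 and 708 in Ortho. The lowest levels belonged to Rps27rt, Rps4l, Rps3a3, Rpl6l and Rpl37rt, all but Rps27rt annotated as pseudogenes, which lay between 2.41 and 39.5 FPKM in every library. The order of the levels was largely kept between stages, with a Spearman correlation of 0.922 between Pro and Ortho and 0.991 between Poly and Ortho (across 88 genes, which are not independent replicates).

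The change from Pro to Baso was the largest of the 3 steps. Of the 88 members, 82 had a lower level in Baso at an adjusted p under 0.05 (limma on log2(FPKM + 1), Benjamini-Hochberg over 12994 genes) and 0 a higher one, against 42.1% of all genes tested that were lower and 14.9% that were higher. At an unadjusted p under 0.05 the counts were the same, 82 lower and 0 higher. A decrease of 1 or more on the log2 scale was reached by 40 members, against 8.54% of all genes, and in 80 members every Baso library lay below every Pro library, against 44.2% of all genes. The median log2 fold change of the members was -0.97, beside -0.23 for all genes tested, a difference of -0.74 from the median gene. Among the 6 members that did not pass were Rpl31, Rps25, Rps27, Rps27rt and Rps4l.

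The steepest step from Pro to Baso was that of Rps2, whose protein sits at the mRNA entry of the 40S subunit and which lies at chr17:24718116-24721929 (mm10). Rps2 measured 1808, 1486 and 1818 FPKM at Pro, 556, 649 and 583 at Baso, 401, 382 and 413 at Poly and 422, 399.6 and 421 at Ortho. Every Pro library lay over 2 times above every later library, and Poly and Ortho overlapped. The log2 fold change from Pro to Baso was -1.51 ± 0.09 (SE, limma adjusted p = 1.62e-06). Rpl18, whose Pro libraries were uneven, came next, and then Rpl12, a 60S protein at the base of the stalk, with 933, 746 and 808 FPKM in Pro and 265, 343 and 307 in Baso (a change of -1.44 ± 0.10 on the log2 scale, limma adjusted p = 2.11e-06).

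The step from Baso to Poly was smaller. Of the members, 29 fell and 0 rose at an adjusted p under 0.05 (limma), against 5.77% of all genes that were lower and 6.58% that were higher, and 0 reached 1 on the log2 scale, against 0.454% of all genes. At an unadjusted p under 0.05, 53 members were lower and 0 higher, and 63 were lower in a fit of Baso, Poly and Ortho blocked by replicate number. The mean FPKM was lower in Poly than in Baso in all 88 members, and in 62 members the libraries did not overlap, against 15.9% of all genes. The median log2 fold change was -0.28, beside 0.03 for all genes. The count of 29 depended on single libraries: it was 4 without Baso replicate 2, 5 without Baso replicate 3, 4 without Poly replicate 1, 10 without Poly replicate 2, 5 without Poly replicate 3, 19 without Ortho replicate 3 and 49 without Pro replicate 1. All 29 members had also fallen from Pro to Baso.

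Rps2 and Rplp1 had the largest decreases from Baso to Poly, each with a log2 fold change of -0.58 (SE 0.09 and 0.11, limma adjusted p = 0.0043 and 0.0083). Rplp1 measured 1248, 1626 and 1542 FPKM in Baso and 932, 1022 and 990.4 in Poly. Rps20, whose protein lies in the head of the 40S subunit, measured 112, 136 and 93.5 in Baso and 75.9, 79.0 and 74.1 in Poly (log2 fold change -0.56 ± 0.16, limma adjusted p = 0.047). In all 3 genes the libraries of Baso and Poly did not overlap. Rps2 and Rplp1 passed in all 25 alternatives, whereas Rps20 did not pass in 13 of 25, among them no filter, the same summed FPKM, no variance trend and 8 omissions of a single library, from each stage.

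From Poly to Ortho few members moved. Rpl3 alone passed the adjusted p in the lower direction and 0 members in the higher one (limma), against 21.7% of all genes that were lower and 4.43% that were higher, and at an unadjusted p under 0.05 there were 4 lower and 1 higher. Every Ortho library lay below every Poly library in 19 members, against 31.3% of all genes, and above in 5 members (Rpl17, Rpl26, Rpl37rt, Rps27rt and Rps9), against 11.3%. The median log2 fold change of the members was -0.03, and it was -0.22 with all libraries set to the same summed FPKM but 0.11 without hemoglobin genes and 0.12 after median centring, so that its sign depended on the scale. Relative to the median gene the members lay 0.05 higher on the deposited scale. Blocked by replicate number in Baso, Poly and Ortho, 6 members were lower. None reached a decrease of 1 on the log2 scale, against 4.81% of all genes.

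Rpl3, whose protein lies close to the peptidyl transferase centre of the 60S subunit, measured 523, 582 and 525 FPKM in Poly and 404, 473 and 454 in Ortho. The ranges were separate, and the log2 fold change was -0.29 ± 0.09 (limma adjusted p = 0.027), which did not pass without Poly replicate 2, Poly replicate 3, Ortho replicate 1 or Ortho replicate 3. Rps10, at 390.3, 410.1 and 416 in Poly and 296, 365 and 317 in Ortho, had the most negative value of all members at -0.32 ± 0.13 but an adjusted p of 0.091 (limma). Rpl18 had the most positive value, 0.71 ± 0.32 with an adjusted p of 0.143 (limma), on Poly libraries at 103, 109 and 98.7 and Ortho libraries at 229, 104 and 209.7. Ortho replicate 2 of Rpl18 lay within the Poly range, and the other Ortho libraries lay well above it. Rps9 was 538, 545 and 526 in Poly and 569.9, 546 and 663 in Ortho, a log2 fold change of 0.14 ± 0.13.

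**Figure D2:**
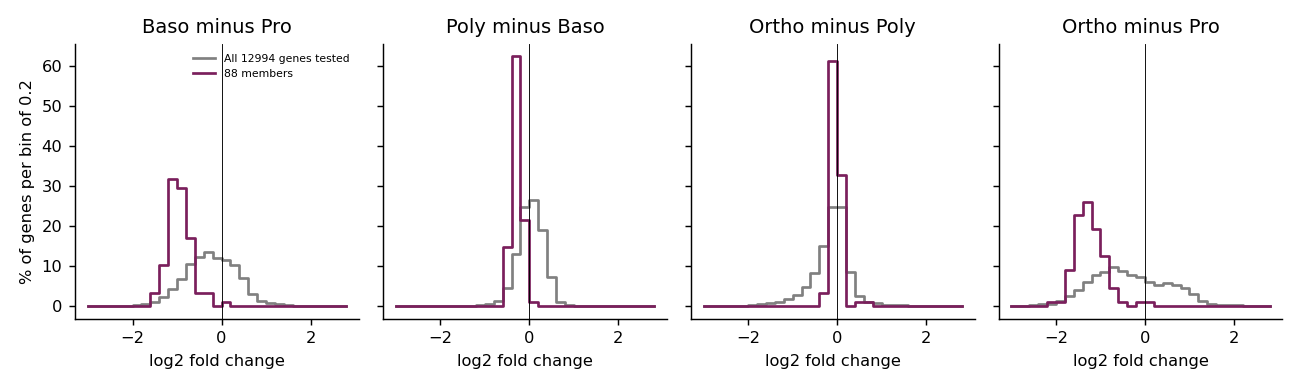
Distribution of log2 fold changes of FPKM + 1 in the 4 comparisons, as percent of genes per bin of 0.2, for the 88 ribosomal protein genes (purple) and all 12994 genes tested (grey). The members' medians were -0.97, -0.28, -0.03 and -1.27 from left to right, beside -0.23, 0.03, -0.08 and -0.42 for all genes.

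Over the whole course from Pro to Ortho, 85 of the 88 members fell and 0 rose at an adjusted p under 0.05 (limma), against 53.2% of all genes that were lower and 22.7% that were higher, with the same counts at an unadjusted p under 0.05. A decrease of 1 or more on the log2 scale was reached by 70 members, against 23.8% of all genes, and 83 members did not overlap, against 53.6%. The median was -1.27, beside -0.42 for all genes, and the difference from the median gene lay between -0.91 and -0.77 under 4 other scalings of the libraries. These scalings moved the median of all genes to between -0.72 and -0.03. Each applies a single factor or shift to a whole library and moves its genes nearly alike. The difference from the median gene therefore had little room to change, and its narrow range is no test of it. Among the 3 members that did not pass were Rps27rt and Rps4l. All 51 members of the 60S subunit and 34 of the 37 members of the 40S subunit were among the 85, with medians of -1.30 and -1.25.

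**Figure D3:**
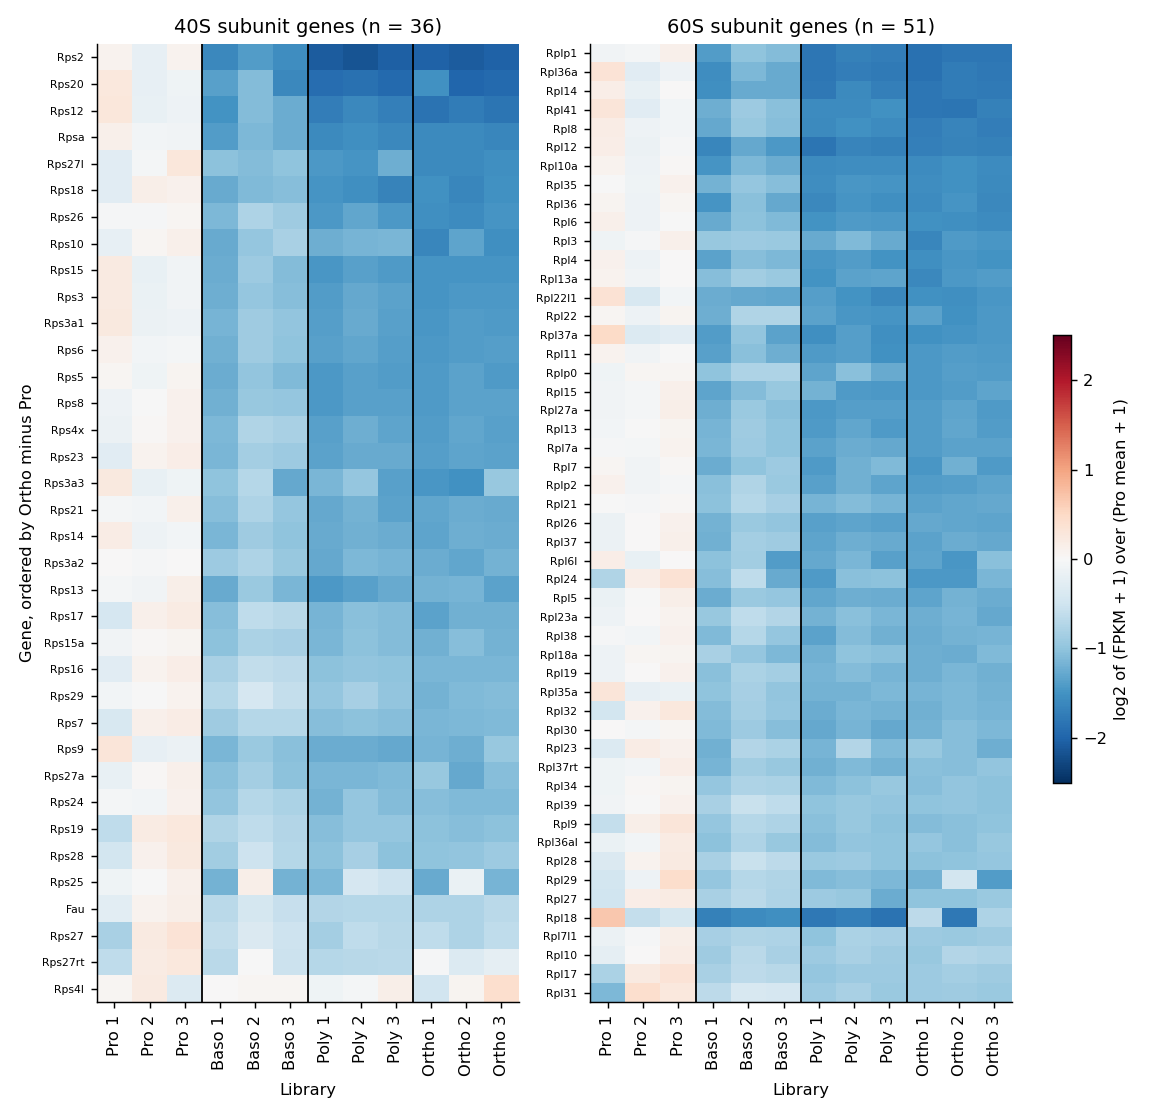
Level of 87 of the 88 ribosomal protein genes in each of the 12 libraries, as the log2 of FPKM + 1 over the Pro mean + 1, for 40S (left) and 60S (right) genes ordered by their change from Pro to Ortho. Blue is lower and red is higher than the Pro mean; all but a few rows turn blue at Baso, and rows such as Rps27 and Rpl31 are blue in Pro replicate 1 as well.

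The steepest decreases from Pro to Ortho were those of Rps2, Rplp1, Rps20, Rps12, Rpl36a, Rpl14, Rpl41 and Rpl8. Rps2 was 4.12 times higher in Pro than in Ortho on mean FPKM, and its log2 fold change was -2.03 ± 0.09 (limma adjusted p = 9.93e-09). Rps12, a 40S protein, measured 2105, 1528 and 1591 FPKM in Pro and 483, 518 and 491 in Ortho, a log2 fold change of -1.79 ± 0.13. Rpl36a measured 698, 452 and 506 in Pro and 149.8, 164 and 159 in Ortho, a log2 fold change of -1.78 ± 0.15. In each of the 3 genes the lowest Pro library lay more than 2 times above the highest Ortho library. Rpl14 measured 1038, 812 and 935 in Pro and 265, 277 and 270.3 in Ortho (log2 fold change -1.77 ± 0.10). Rpl41, which encodes the smallest ribosomal protein, measured 1355, 904 and 1058 in Pro and 317, 309.7 and 340.0 in Ortho (log2 fold change -1.76 ± 0.13). Rps20 measured 345, 251 and 269.6 in Pro and 101, 72.1 and 74.5 in Ortho (log2 fold change -1.80 ± 0.16), and the limma adjusted p of all 8 genes was at most 1.35e-06.

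At the other end stood, among others, Rps27, Fau, Rpl31, Rpl17, Rpl10, Rps25 and Rpl7l1. Fau, which encodes Rps30 fused to a ubiquitin-like protein, measured 749.8, 960.2 and 991 FPKM at Pro, 564, 661 and 600.3 at Baso, 543, 547 and 548 at Poly and 526, 527 and 567 at Ortho. Its Pro libraries lay above all others, and the later stages lay close together. The log2 fold change from Pro to Ortho was -0.73 ± 0.10 (limma adjusted p = 5.94e-05). Rpl10, among the last proteins loaded onto the 60S subunit, measured 441, 519 and 580.5 in Pro and 264, 309 and 299 in Ortho (log2 fold change -0.81 ± 0.10, limma adjusted p = 2.40e-05). The libraries of Rpl10 overlapped between Baso and Poly, with 278, 323 and 294 in Baso and 273, 293 and 276 in Poly.

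**Figure D4:**
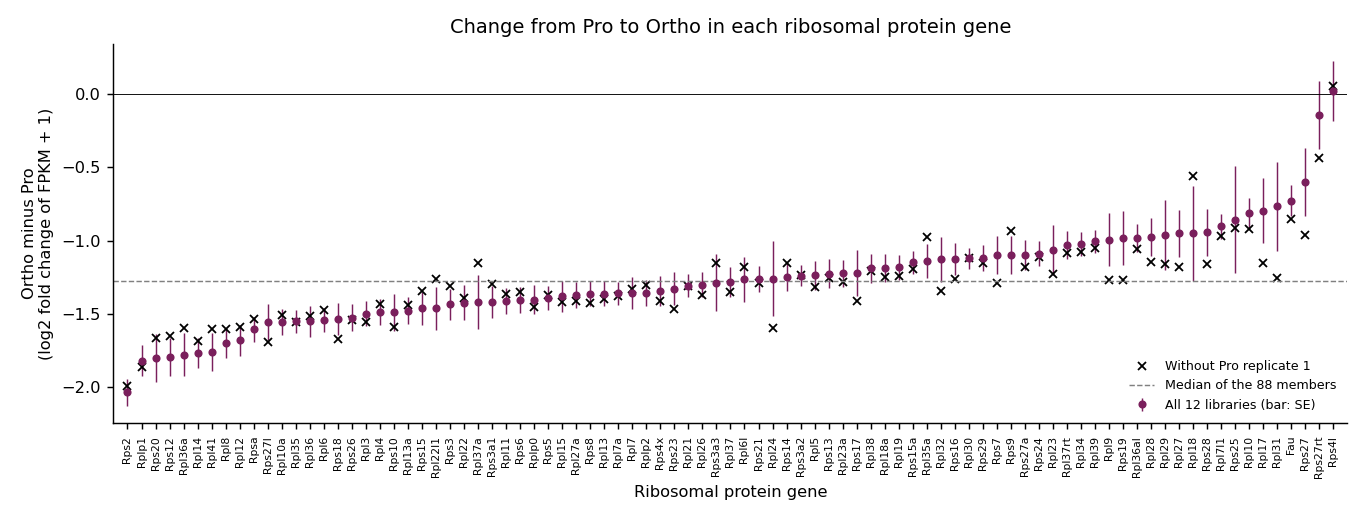
Log2 fold change of FPKM + 1 from Pro to Ortho for 87 of the 88 ribosomal protein genes, from all 12 libraries (points, bars are SE) and without Pro replicate 1 (crosses). The dashed line is the median of the 88 members, -1.27; Rps2 lies lowest at -2.03 and Rps4l highest at 0.02.

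Several of the smallest changes rested on Pro replicate 1. This was read from the 85 members with a mean FPKM of at least 10. In this library 11 of them lay more than 1.5 times below the mean of the other Pro libraries (among them Rps19, Rpl9, Rpl29, Rpl32, Rpl17, Rpl27, Rps28, Rpl31, Rps27 and Rpl24). Another 3 lay more than 1.5 times above it (Rpl22l1, Rpl37a and Rpl18). The shares were 3.99% and 3.39% of the genes tested that had a mean FPKM of at least 10. In no other library did more than 3 members depart by as much. Without Pro replicate 1, 86 members were lower in Baso than in Pro and 85 lower in Ortho than in Pro (limma adjusted p under 0.05), and the medians were -0.97 and -1.30. The members that then did not pass from Pro to Ortho were Rps25, Rpl18 and Rps4l. The part of this library's make-up in the values was not tested.

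Rpl31 measured 352, 1024 and 925 FPKM at Pro, 487, 585 and 574 at Baso, 411, 439 and 402 at Poly and 406, 416 and 401 at Ortho. Its first Pro library lay below all later libraries, and the other Pro libraries lay above all of them. The log2 fold change from Pro to Ortho was -0.77 ± 0.30 (limma adjusted p = 0.036) and -1.25 without Pro replicate 1. Rps27, a 40S protein with a zinc finger, measured 469, 950.3 and 1036 in Pro and 524, 480.1 and 524 in Ortho, and its log2 fold change went from -0.60 ± 0.23 to -0.96 without that library. From Pro to Ortho, Rpl31 and Rps27 each did not pass in 11 of 24 alternatives, namely no filter, 3 scalings, only these stages, the omission of Pro replicate 2 or 3 or of any Ortho library, and the omission of Ortho replicates 2 and 3. Pro replicate 1 was also low in Rpl17, at 518 beside 1048 and 1136, whose log2 fold change went from -0.80 ± 0.22 to -1.15.

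Rps25 and Rpl18 varied within other stages. Rps25, whose 40S protein is needed for initiation on some viral RNAs, measured 264, 283 and 312 FPKM at Pro, 126, 317 and 126 at Baso, 132, 213 and 199 at Poly and 119, 255 and 128 at Ortho. Replicate 2 was the highest library of Baso, Poly and Ortho, and lay above every Pro library in Baso. The log2 fold change from Pro to Ortho was -0.86 ± 0.36 (limma adjusted p = 0.049) and did not pass in 13 of 24 alternatives. Rpl18 measured 571, 238 and 266 in Pro and 110.4, 121 and 123 in Baso, a difference of -1.48 ± 0.32 on the log2 scale (limma adjusted p = 0.0023), and its change from Pro to Ortho was -0.95 ± 0.32, or -0.56 without Pro replicate 1.

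**Figure D5:**
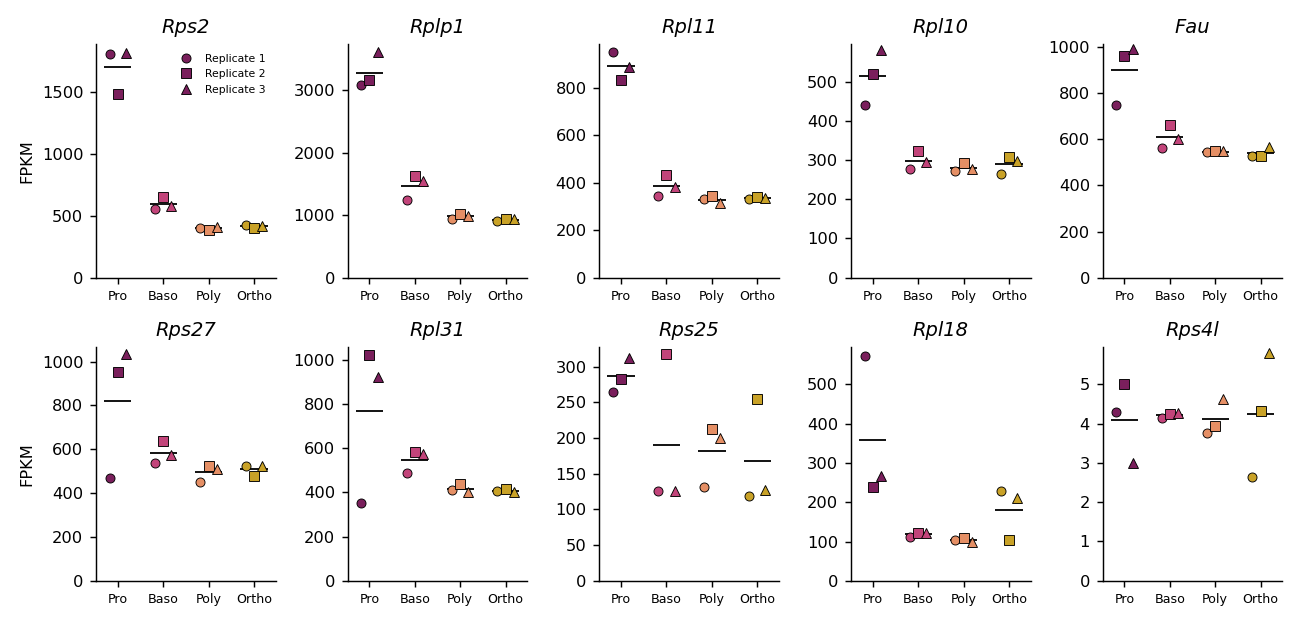
FPKM of 10 ribosomal protein genes in each library, by stage and replicate number, with the stage mean as a line and each vertical axis starting at 0. In Rps2, Rplp1, Rpl11, Rpl10 and Fau the Pro libraries lie above all others, while Rps27 and Rpl31 have 1 low Pro library, Rps25 and Rpl18 have scattered libraries and Rps4l shows no step.

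The P stalk of the 60S subunit, which recruits the elongation factors, is made of Rplp0 with dimers of Rplp1 and Rplp2. All 3 genes fell from Pro to Baso and again from Baso to Poly, and none passed from Poly to Ortho (limma). Rplp1 (chr9:61913284-61914542) measured 3076, 3166 and 3605 FPKM in Pro and 905, 939 and 939 in Ortho, the highest level of any member in Pro, and fell by 1.82 on the log2 scale (SE 0.11, limma adjusted p = 4.88e-08). Rplp0 measured 2269.7, 2498 and 2524 in Pro and 898, 935 and 922 in Ortho (log2 fold change -1.40 ± 0.10). Rplp2 measured 871, 764 and 791 in Pro and 307, 312 and 326 in Ortho (log2 fold change -1.36 ± 0.09). The FPKM of Rplp2 was lower than that of Rplp0 and Rplp1 in all 12 libraries.

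The 5S RNP genes fell from Pro to Baso, and neither passed in a later step (limma). Rpl11 (chr4:136028265-136053428) measured 951, 833 and 888 FPKM at Pro, 345, 433 and 379.7 at Baso, 331, 342 and 313 at Poly and 331, 338 and 333 at Ortho. Rpl5 (chr5:107900502-107909005) measured 512, 568 and 637 at Pro, 242, 299 and 292 at Baso, 231, 246 and 241 at Poly and 230.1, 253 and 242 at Ortho. In both genes the Pro libraries lay far above the rest. The Baso libraries of Rpl11 all lay above its Poly libraries, while those of Rpl5 overlapped with Poly, with log2 fold changes from Baso to Poly of -0.23 ± 0.09 and -0.21 ± 0.10 (limma adjusted p = 0.113 and 0.193). The log2 fold change from Pro to Ortho was -1.41 ± 0.09 for Rpl11 and -1.24 ± 0.10 for Rpl5 (limma adjusted p = 7.70e-08 and 5.13e-07). Of 6 genes of the p53 pathway that the 5S RNP acts on, 4 were lower in Ortho than in Pro, a share of 66.7% near the 53.2% of all genes tested, among them Trp53 (87.0, 82.7 and 91.8 FPKM in Pro, 37.9, 42.0 and 38.2 in Ortho, log2 fold change -1.13 ± 0.09). Mdm2, the p53 ubiquitin ligase, was 28.0, 27.4 and 21.9 in Pro and 24.0, 18.2 and 19.6 in Ortho (log2 fold change -0.31 ± 0.14, limma adjusted p = 0.068). The remaining gene of the 6 went the other way, with a log2 fold change of 0.72. Its Ortho libraries all lay above its Pro libraries. It passed an unadjusted p under 0.05 (limma) but not the adjusted one.

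Of the 88 members, 21 are known as Diamond-Blackfan anemia genes. From Pro to Baso 19 of them fell, from Baso to Poly 5, from Poly to Ortho 0 and from Pro to Ortho all 21 (limma), against 42.1%, 5.77%, 21.7% and 53.2% of all genes tested, with a median of -1.14 from Pro to Ortho beside -1.27 for all members. Rps19, the most often mutated gene in the disease, measured 517, 918 and 961 FPKM at Pro, 476, 515 and 483 at Baso, 383, 410.5 and 407 at Poly and 394, 380.1 and 394 at Ortho. Pro replicate 1 of Rps19 lay just above the Baso range, and the other Pro libraries lay far above it. Its log2 fold change from Pro to Ortho was -0.98 ± 0.18 (limma adjusted p = 4.28e-04), and -1.27 without Pro replicate 1.

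Some ribosomal protein genes have a paralog, a related gene or copy. Whether its product can take the place of the parent's protein was not tested, and Rps4l is annotated as a pseudogene. Of 6 such paralogs that passed the filter, 4 fell from Pro to Ortho (Rpl7l1, Rpl22l1, Rpl36al and Rps27l), and all 9 parent genes fell (limma), against 53.2% of all genes tested. Rpl22l1 measured 264, 156 and 196 FPKM in Pro and 71.7, 70.7 and 74.3 in Ortho, beside 176, 155 and 176 and 66.8, 59.0 and 61.8 for its parent Rpl22. The levels of both genes overlapped in Pro, and their log2 fold changes were -1.46 ± 0.15 and -1.42 ± 0.12. Rpl36al measured 274, 294 and 354 in Pro and 156, 148 and 159.6 in Ortho, a log2 fold change of -0.98 ± 0.10 beside -1.78 ± 0.15 for Rpl36a. The levels of Rpl36a and Rpl36al overlapped in Ortho, whereas Rpl36a was higher in every Pro library than any Pro library of Rpl36al. Rpl7l1 stayed far below its parent, with 35.3, 38.2 and 43.4 in Pro and 20.2, 20.1 and 20.6 in Ortho, where Rpl7 had 964, 871 and 944 and 337, 400.5 and 346.

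Rps27 has 2 relatives among the members. Rps27l measured 155, 182 and 231 FPKM in Pro and 61.9, 62.2 and 64.5 in Ortho, a change of -1.55 ± 0.12 on the log2 scale (limma adjusted p = 4.43e-07), a steeper value than the -0.60 of Rps27. Their coding sequences shared 76.2% of bases. Rps27rt, a retrogene copy of Rps27 (ENSMUSG00000050621), was identical to it over the whole coding sequence of 252 bases, so that reads of the pair cannot be told apart there. It measured 2.60, 5.51 and 5.73 in Pro and 4.47, 3.42 and 3.82 in Ortho, a log2 fold change of -0.15 ± 0.23 that changed sign with the scaling. Rps4l, a processed copy of the X-linked Rps4x, measured 4.28, 4.99 and 3.01 in Pro and 2.64, 4.32 and 5.78 in Ortho with a log2 fold change of 0.02 ± 0.20. Rps4x itself measured 1333, 1489 and 1582 in Pro and 558, 599 and 574 in Ortho (log2 fold change -1.34 ± 0.10). The rows with -ps that the name rule left out summed to 2.09% to 2.61% of the members' FPKM over the 12 libraries, and how reads that match several places were counted is not given in the sources used here, so the values of the 5 members annotated as pseudogenes are uncertain.

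The members did not change by equal amounts. Each gene's change from Pro to Ortho was also tested after the median log2(FPKM + 1) of the members in the same library had been subtracted, and 52 members then lay within 0.25 of 0. Of the 88, 14 passed an adjusted p under 0.05 as higher than the member median and 19 as lower (limma), against 69.8% and 5.63% of all genes tested. Centring on the members places them on both sides of 0, so the shares of all genes are no background for these counts. The lowest values were those of Rps2 (-0.78 ± 0.11), Rplp1 (-0.56 ± 0.08), Rps20 (-0.54 ± 0.19) and Rps12 (-0.53 ± 0.14), and among the highest were those of Rps4l (1.27 ± 0.23), Rps27rt (1.11 ± 0.19) and Rps27 (0.66 ± 0.19). Without Pro replicate 1, 12 of the 14 and 17 of the 19 passed again, and with only Pro and Ortho in the fit 7 were higher and 9 lower. Over the 12 libraries, Pearson's r of a member with the members' median profile ran from -0.07 to 0.999 with a median of 0.977. These points share their libraries and the steps between stages.

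For sequence context, the 60 bases around the annotated start were taken for 8 genes, 40 bases before it and 20 from it on, from RefSeq promoters on GRCm38.p6. All 8 are protein-coding genes with an entry and a mean FPKM of at least 10. They are among those with the lowest and the highest changes from Pro to Ortho. The ranking behind this choice was not unbroken, because some genes were left out of it. Capitals mark the longest run of C or T in the window. A TOP run begins at the 5′ end of the mRNA, whereas the marked runs of Rpl36a, Rpl31 and Rpl10 lie wholly before the annotated start. Those of Rps2 and Rps12 begin after it, at bases 5 and 9 counted from the start. Only the marked runs of Rpl14, Rps27 and Fau span the annotated start. Among the lowest changes were those of:
Rps2, chr17:24720023-24720082, plus strand: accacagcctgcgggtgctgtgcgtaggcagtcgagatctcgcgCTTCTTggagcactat
Rps12, chr10:23787190-23787249, minus strand: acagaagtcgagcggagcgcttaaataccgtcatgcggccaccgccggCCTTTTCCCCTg
Rpl36a, chrX:134585614-134585673, plus strand: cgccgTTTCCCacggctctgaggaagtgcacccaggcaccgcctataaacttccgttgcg
Rpl14, chr9:120571477-120571536, plus strand: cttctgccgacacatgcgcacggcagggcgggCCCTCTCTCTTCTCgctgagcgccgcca
Among the highest changes were those of:
Rps27, chr3:90213629-90213688, minus strand: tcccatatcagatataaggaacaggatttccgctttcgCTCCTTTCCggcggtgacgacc
Fau, chr19:6057907-6057966, plus strand: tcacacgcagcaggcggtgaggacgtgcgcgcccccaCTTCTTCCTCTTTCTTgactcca
Rpl31, chr1:39367811-39367870, plus strand: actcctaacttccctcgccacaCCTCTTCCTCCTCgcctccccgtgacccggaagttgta
Rpl10, chrX:74270776-74270835, plus strand: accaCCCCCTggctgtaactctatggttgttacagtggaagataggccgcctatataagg
The longest run measured 6, 11, 6 and 14 bases in Rps2, Rps12, Rpl36a and Rpl14, and 9, 16, 13 and 6 bases in Rps27, Fau, Rpl31 and Rpl10, so that its length did not separate these groups. Only 13 of 64 RefSeq starts were the same as the start in GENCODE M21 and 41 lay within 50 bases of it, which limits what position can be read from these windows.

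A promoter of 300 bases (250 before the start and 50 from it on) was on hand for 64 of the 88 members, 8900 genes tested and 27025 genes in all. A run of at least 5 C or T from the start on was found in 26.6% of the members, 4% of the genes tested and 4.36% of all promoters, and a run of at least 8 within 50 bases either side of the start in 78.1%, 32.0% and 35.7%. The word CTTTCC on the gene's strand between 10 bases before and 30 after the start was found in 14.1% of the members (9 genes, among them Rps27, Rps10 and Rpl18), 1.71% of the genes tested and 1.73% of all promoters. On both strands of the whole window, CCGGAAG, a word of ETS factors, was found in 37.5% of the members, 19.9% of the genes tested and 9.12% of all promoters. GCCATNTT, a word of YY1, was found in 20.3%, 9.71% and 6.23%. The word CACGTG of Myc was found in 7.81% of the members, 10.7% of the genes tested and 7.24% of all promoters, and AGATAA of Gata1 in 4.69%, 6.66% and 11.4%. CCNCNCCC of the Klf family was found in 64.1% of the members, less than the 67.8% of the genes tested and more than the 49.1% of all promoters. The words were not checked for overlap with each other. A match describes the letters and does not show binding.

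The other genes of the pathway were described from fixed lists. Rack1, a component of the 40S subunit that its symbol keeps outside the rule, measured 983, 881 and 962 FPKM in Pro and 325, 343 and 329.7 in Ortho (log2 fold change -1.50 ± 0.09). Of 78 mitochondrial ribosomal protein genes tested, 72 were lower in Baso than in Pro, 5 in Poly than in Baso, 11 in Ortho than in Poly and 76 in Ortho than in Pro (limma). These are 92.3%, 6.41%, 14.1% and 97.4%, against 42.1%, 5.77%, 21.7% and 53.2% of all genes tested, so that the second share was near that of all genes and the third below it. The median from Pro to Ortho was -1.21 beside -1.27 for the cytosolic members. The pseudogene rows with -ps that passed the filter, 111 in number, had a median of -1.06, with 106 lower in Ortho than in Pro.

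Genes that build the ribosome fell chiefly in the first step. Of 33 genes for ribosome biogenesis and RNA polymerase I, 32 fell from Pro to Baso, 0 from Baso to Poly and 4 (Nop56, Ubtf, Emg1 and Sbds) from Poly to Ortho (limma), against 42.1%, 5.77% and 21.7% of all genes tested, and at the first step the exception was Ubtf, the upstream binding factor of RNA polymerase I. Npm1, a nucleolar chaperone, measured 507, 398 and 508 FPKM in Pro, 169, 171 and 162 in Baso and 165, 164 and 165 in Ortho, a log2 fold change of -1.50 ± 0.10 from Pro to Ortho. All 6 dedicated chaperones of ribosomal proteins fell from Pro to Baso and 0 passed in either later step. Heatr3, which carries Rpl5, measured 26.2, 19.7 and 26.1 in Pro and 5.79, 6.29 and 6.66 in Ortho (log2 fold change -1.77 ± 0.12). Tsr2, which carries Rps26, measured 10.4, 7.29 and 9.80 in Pro and 2.26, 2.65 and 3.40 in Ortho (log2 fold change -1.43 ± 0.21).

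Of 14 other TOP mRNAs, 13 fell from Pro to Ortho and Pabpc1 rose (limma), against 53.2% of all genes tested that fell and 22.7% that rose. Pabpc1, the cytoplasmic poly(A)-binding protein, measured 836, 806 and 910.4 FPKM at Pro, 975, 1070.2 and 1031 at Baso, 912, 1094 and 1002 at Poly and 2107, 2367 and 1996 at Ortho. All Ortho libraries lay above all others, with a log2 fold change from Poly to Ortho of 1.10 ± 0.10 (limma adjusted p = 3.99e-06). Eef1a1, the main elongation factor, measured 3389, 3599.5 and 3898 in Pro and 1616, 1678 and 1651 in Ortho (log2 fold change -1.14 ± 0.09). Of 13 genes of TOP and mTORC1 control, 12 were lower in Ortho than in Pro, among them Larp1, at 59.1, 49.0 and 51.5 in Pro and 26.5, 23.9 and 25.2 in Ortho (log2 fold change -1.05 ± 0.08), and the exception was Tsc1. Of 5 genes of ribosome rescue and recycling, 4 were lower in Ortho than in Pro and Gtpbp2, a rescue GTPase, was higher, at 89.8, 102 and 91.1 in Pro and 164, 149 and 171 in Ortho (log2 fold change 0.77 ± 0.08).

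Among genes outside the name rule, those whose profile over the 12 libraries was most like the members' median were Eif3i (Pearson's r = 0.997), a subunit of initiation factor 3, Eef2 (0.996), the translocating elongation factor, and Isg20l2 (0.995), with a median of 0.469 over all other genes tested. Eef2 measured 1197, 1262 and 1363 FPKM in Pro and 550.4, 548 and 554 in Ortho.

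Markers of cells that the sort should have removed moved with the stages. The summed FPKM of 10 neutrophil markers, led by S100a9 and S100a8, was 7350 to 9160 at Pro, 12623 to 14743 at Baso, 16199 to 19185 at Poly and 14440 to 17855 at Ortho. Of the 10, 9 were higher in Ortho than in Pro (limma), against 22.7% of all genes tested. The sum of 7 B cell markers was 59.4 to 104 in Pro and 149.8 to 193 in Ortho, with 7 of 7 higher, against the same 22.7%. The sums of 6 T and NK cell markers and of 6 macrophage markers were at most 41.6 and 42.7 in any library. Cd3e, C1qa and C1qb were under 1 on average at every stage. The mean sum of the T and NK cell markers rose from 25.4 in Pro to 38.5 in Ortho. That of the macrophage markers rose from 18.9 in Pro to 37.8 in Ortho. Of 3 T and NK cell markers tested 3 were higher in Ortho than in Pro, and of 3 macrophage markers 2 (limma). The share of all genes tested was 22.7%. Of 6 megakaryocyte markers 4 were lower in Ortho than in Pro and 1 was higher. The share of 66.7% that were lower was near the 53.2% of all genes tested. Their sum was 70.7 to 127 in Pro and 39.1 to 47.7 in Ortho. Of 7 erythroid markers, 3 were higher and 3 lower in Ortho than in Pro (limma), against 22.7% and 53.2% of all genes tested. Their median log2 fold change was 0.02. Alas2, the first enzyme of heme synthesis, rose from a mean of 336 in Pro to 2221 in Ortho. Klf1, an erythroid transcription factor, fell from 319.8 to 69.3. Among 4 early erythroid markers, 3 were higher in Ortho than in Pro, against 22.7% of all genes tested. Among these was Cd44, whose protein set the gates and falls with maturation, at a mean of 32.9 in Pro and 54.9 in Ortho. Ribosomal proteins are made in all these cells, and the part of such RNA in the members' values was not tested.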

How the data were processed

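RNA sequencing of 4 erythroblast stages with 3 libraries each was analysed, and libraries were assigned to stages from their titles. The authors trimmed reads with cutadapt and Trimmomatic, aligned them to mm10 with HISAT2, handled them with SAMtools and counted them with featureCounts. Versions, the annotation release, strand setting and FPKM tool are not given in the sources used here. The values used are the FPKM deposited by the authors, 1 per gene and library, in 29839 lines with 1 repeated identifier removed. In 950 genes with values under 0.3, 3.49% of log2 ratios between libraries fell in the fullest bin (width 0.1), so whole reads could not be recovered, the depth is unknown and the spread between 3 libraries sets the precision. The labels do not say that replicates are separate mice, so p-values measure only the spread between these libraries.

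The model was fitted by limma 3.58.1 (R 4.3.3) to log2(FPKM + 1) of genes that reached an FPKM of 1 in 3 or more libraries, with a pseudocount of 1 that understates changes of low genes, all 12 libraries, a variance trend, two-sided p-values and Benjamini-Hochberg adjustment at 0.05. The study used DESeq2 on counts, which were not used here. With 3 libraries against 3, an exact permutation test cannot go below a p of 0.1. Errors of log2 fold changes are SE and others SD. On simulated data for Ortho against Pro with 12994 genes, 88% of 200 genes changed by 1 on the log2 scale were recovered and 15 unchanged genes were called. The changed genes were drawn from those with a Pro mean above 3 on the log2(FPKM + 1) scale. Noise was independent between libraries and all other genes were unchanged. The simulation thus does not cover low members or the wide change in these data. Positions and biotypes came from GENCODE M21 (29750 identifiers matched). Promoters came from RefSeq, and proteins were not used.

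The members and gene lists were chosen with earlier results of these data known. Named genes were the 8 lowest and 8 highest changes from Pro to Ortho at a mean FPKM of at least 10, the 3 lowest and highest in each step, the 5 highest and lowest levels, the extremes relative to the member median, P stalk, 5S RNP and paralog genes, the members nearest the filter, and leading or decisive genes of the lists. Other members were named after their values were seen: Rps19, and those that stood apart in Pro replicate 1. Some genes that the rule names are not reported here, and the counts and medians over the members include them. Deviations of libraries with the same replicate number correlated at 0.156 to 0.319 among Baso, Poly and Ortho and at 0.00524 to 0.0968 with Pro, so the numbers pair the later stages on the values alone. Alternatives were other pseudocounts, filters and scalings, no variance trend, only the stages compared, the replicate block, a fold threshold, protein-coding members only and leaving out libraries. Figures were drawn with matplotlib 3.10.9 in Python 3.11.15.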

Additional observations from a re-analysis of the deposited data

How the results depend on the processing

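The decrease from Pro to Baso and from Pro to Ortho kept its direction under every alternative run, with 80 to 86 and 82 to 85 members lower when single libraries were left out and median log2 fold changes of -1.03 to -0.90 and -1.31 to -1.24. The median from Pro to Baso was -1.15 at the same summed FPKM, -0.65 without hemoglobin genes, -0.67 after median centring and -0.75 at the same sum of genes other than hemoglobin and members. From Pro to Ortho the same scalings gave -1.63, -0.80, -0.87 and -0.92. With a log2 fold change of at least 1 also required, 40, 0 and 0 members were lower in the 3 steps.

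From Baso to Poly, the count of 29 became 7 with no filter, 63 with the replicate block in Baso, Poly and Ortho, 4 to 49 without single libraries and 9 without Ortho replicates 2 and 3, the last chosen after seeing the data. From Poly to Ortho, the 1 lower member became 23 at the same summed FPKM, 6 with only these stages, 2 with the replicate block, 6 with the block in the later stages, and 0 with no filter, without hemoglobin, after centring, at the same sum of other genes or without Ortho replicates 2 and 3, with 0 to 1 without single libraries. Higher members numbered 2 under each of the last 3 scalings, 1 with only these stages and 0 to 2 without single libraries, and the median was -0.22 at the same summed FPKM but reversed to 0.11, 0.12 and 0.12 under the other scalings. Relative to the member median, 7 members were higher and 9 lower with only Pro and Ortho, and 9 to 18 higher and 13 to 18 lower without single libraries. The replicate block moved no other count of members by over 1.5 times.

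Members with small changes changed sign. Rps27rt was 0.27, 0.25 and 0.15 under the scalings without hemoglobin, by centring and by other genes, -0.44 to 0.012 without single libraries and 0.018 without Ortho replicates 2 and 3. Rps4l was -0.28 at the same summed FPKM, -0.19 to 0.26 without single libraries and -0.46 without Ortho replicates 2 and 3. Rps25 from Baso to Poly was -0.17 to 0.49 without single libraries. Rpl37rt and Rps9 from Poly to Ortho were -0.051 and -0.049 at the same summed FPKM. Of the other values of named genes, 1163 stayed on their side of the threshold, 16 passed it anew and 62 no longer passed it, in the same direction. The cause was not tested. The unknown depth limits all low members, such as Rps27rt and Rps4l.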
